A study of Mus musculus with 8 samples.

Results

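The flavin-containing monooxygenases are described here in mouse liver through 4 family genes, Fmo1, Fmo2, Fmo4 and Fmo5, out of 22180 genes that had a probe set assigned to that gene alone. Each of the 4 was read by 1 probe set, 17229020 for Fmo1, 17229036 for Fmo2, 17229007 for Fmo4 and 17400773 for Fmo5. Liver RNA of male mice labelled C57BL/6J was measured on Affymetrix whole-transcript arrays, 4 from wild type littermates and 4 from mice carrying the Tm6sf2 E167K variant as a knock-in, to ask how the variant acts on glucose and lipid metabolism. The labels name neither the age of the mice nor whether 1 or both alleles were altered. The series text names a high-fat diet for 20 weeks, whereas the sample labels name a sucrose-based diet free of fat, or chow, for 14 weeks, so the diet of the 8 arrays is not settled and neither group is tied to one. Nothing in the labels ties each array to an animal of its own, and the p-values therefore cover the spread among the 8 samples, which may be technical. The variant changes the protein and no array value checks it, so group membership rests on the labels. In whole liver, fewer cells of a type and less RNA per cell cannot be told apart.

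Flavin-containing monooxygenases are enzymes of the endoplasmic reticulum that bind FAD, take electrons from NADPH and hold an activated oxygen on the flavin until a substrate arrives. Most act on soft nucleophiles, the nitrogen or sulfur atoms of drugs, toxins and some metabolites, alongside the cytochromes P450. Fmo1 is a main drug-oxygenating form of mouse liver and also turns hypotaurine into taurine, Fmo2 is best known as the lung form, and Fmo4 has few known substrates. Fmo5 departs from the family: the human enzyme inserts oxygen beside ketones (Baeyer-Villiger oxidation), and mice without Fmo5 are known to be leaner and to have lower plasma cholesterol.

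RefSeq promoter windows (GRCm38.p6, from 250 bases before the start site to 50 after it) were at hand for 3 of the 4 genes, Fmo2, Fmo4 and Fmo5. Shown 5′ to 3′ are those of Fmo5, whose groups did not overlap, and of Fmo4, which had the next smallest p, with motif matches in capitals. The Fmo5 window lies at chr3:97628769-97629068 on the plus strand and that of Fmo4 at chr1:162812500-162812799 on the minus strand.
Fmo5: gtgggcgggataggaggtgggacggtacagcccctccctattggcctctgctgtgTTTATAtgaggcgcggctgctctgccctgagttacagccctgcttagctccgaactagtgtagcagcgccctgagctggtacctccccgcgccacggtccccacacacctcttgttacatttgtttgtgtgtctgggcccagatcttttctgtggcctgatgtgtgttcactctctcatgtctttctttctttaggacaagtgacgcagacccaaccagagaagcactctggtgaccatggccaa
Fmo4: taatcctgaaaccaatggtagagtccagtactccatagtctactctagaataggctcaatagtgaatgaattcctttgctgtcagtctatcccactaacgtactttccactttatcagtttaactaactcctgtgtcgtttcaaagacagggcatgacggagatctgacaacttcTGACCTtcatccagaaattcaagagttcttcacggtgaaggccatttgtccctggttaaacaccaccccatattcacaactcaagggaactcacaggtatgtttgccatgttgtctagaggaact
The search covered both strands for 5 motifs: the TATA box TATAAA, the HNF1 motif GTTAAT, the nuclear receptor motif AGGTCA, the AHR core GCGTG and the E-box CACGTG. The Fmo5 window held 1 match, to the TATA box letters on the opposite strand, starting 195 bases before the start site. Of all 32851 windows of this length, 13.6% held those letters on either strand. The Fmo4 window held 1 match, to the nuclear receptor motif on the opposite strand, starting 75 bases before the start site, against 16.3% of all windows. Of the windows for Fmo2, the first held no match to any of the 5 and the second held AGGTCA, 9 bases before its start site. The Fmo5 window was richer in G and C (56%) than that of Fmo4 (42.7%). HNF1, AHR core and E-box letters stood in 7.1%, 32.4% and 7.15% of all windows. A match is a description of letters in this window and marks no bound site.

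The arrays were alike in their distributions, with log2 medians of 3.73 to 3.80, and any pair correlated at 0.973 to 0.980 over all 41345 probe sets. All 4 genes lay above the dim limit of each array (3.46 to 3.50, the 40th percentile of the probe sets with 1 gene) on 8 of 8 arrays. Values of different probe sets are not set against each other below, since probe sets differ in how brightly they bind. The further family genes Fmo6 and Fmo9 lay below that limit on all 8 arrays, Fmo6 at 1.99 to 2.55 and Fmo9 at 2.29 to 2.69, and were not tested.

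Of the 4 genes, Fmo5 was the one whose knock-in arrays all lay above the wild type arrays, by 1.35-fold on average, while Fmo1, Fmo2 and Fmo4 had overlapping groups whose means differed by at most 0.14 log2 units. None of the 4 passed limma's adjusted threshold of 0.05 over the 13449 tested genes, where 0.0669% of genes passed (9 genes). At an unadjusted p under 0.05, 1 of the 4 was counted, Fmo5, against 11.3% of all tested genes in either direction and 6.01% in the higher one.

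**Figure D1:**
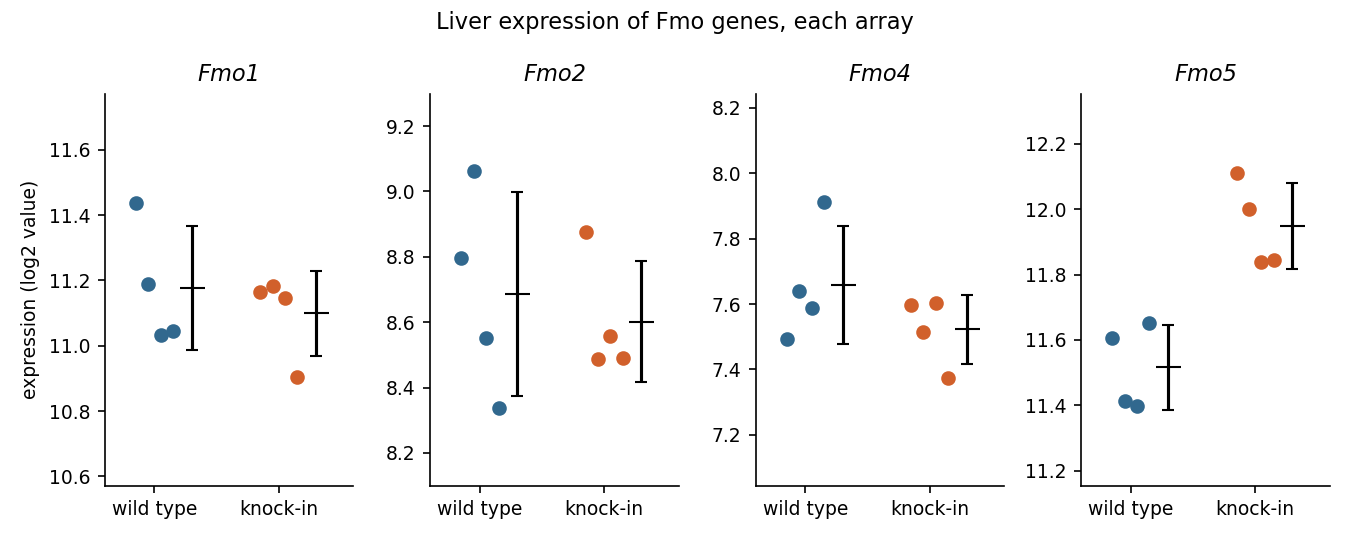
Log2 expression of Fmo1, Fmo2, Fmo4 and Fmo5 (vertical axes, each spanning the same 1.2 log2 units) in the 4 wild type and 4 knock-in arrays, with points for arrays in replicate order and bars for mean ± SD. The Fmo5 knock-in arrays sit at 11.84 to 12.11 and the wild type arrays at 11.40 to 11.65; in the other 3 genes the groups overlap.

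Fmo1, which oxygenates a wide range of drugs, read 11.44, 11.19, 11.03 and 11.04 in wild type replicates 1 to 4 and 11.16, 11.18, 11.15 and 10.91 in knock-in replicates 1 to 4 (log2 values). Wild type replicate 1 was the highest of the 8 and knock-in replicate 4 the lowest, and the remaining 3 knock-in arrays lay within the wild type range. The means were 11.18 ± 0.19 and 11.10 ± 0.13 (SD, n = 4 each). Knock-in minus wild type came to -0.08 (SE 0.12; limma adjusted p = 0.865; 95% interval -0.34 to 0.19; exact permutation p = 0.514). Its sign rested on a single array, since without wild type replicate 1 the change was 0.010.

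Fmo2, the lung form, was above the dim limit in these livers and spread the most among the 4 genes. Wild type replicates 1 to 4 read 8.80, 9.06, 8.55 and 8.34, and knock-in replicates 1 to 4 read 8.87, 8.49, 8.56 and 8.49. The wild type arrays spanned 0.72 log2 units and held both the highest and the lowest value, so the knock-in arrays lay wholly inside their range. The means were 8.69 ± 0.31 and 8.60 ± 0.18 (SD, n = 4 each), a change of -0.08 (SE 0.16, 95% interval -0.45 to 0.29, limma adjusted p = 0.901, exact permutation p = 0.686). Without wild type replicate 2 the change was 0.040, and with the clock score described below as a covariate it was 0.25. That score ran largely with genotype, so here and below a fit with both separates them poorly.

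Fmo4, whose substrates are poorly known, read 7.49, 7.64, 7.59 and 7.91 in wild type replicates 1 to 4 and 7.60, 7.51, 7.60 and 7.38 in knock-in replicates 1 to 4. Wild type replicate 4 stood highest and knock-in replicate 4 lowest, and the other 6 arrays lay between 7.49 and 7.64. The means were 7.66 ± 0.18 and 7.52 ± 0.11 (SD, n = 4 each). Between the genotypes Fmo4 differed by -0.14 (SE 0.11; limma adjusted p = 0.700; 95% interval -0.38 to 0.11; exact permutation p = 0.286), and it was -0.05 without wild type replicate 4. With the clock score as a covariate it was -0.36 (SE 0.15, limma unadjusted p = 0.0465, adjusted p = 0.728). For Fmo1, Fmo2 and Fmo4 alike the intervals of the fit on genotype alone leave room for a change of either sign, so the data do not show that these genes were equal in both groups.

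Fmo5, the Baeyer-Villiger form, read 11.60, 11.41, 11.40 and 11.65 in wild type replicates 1 to 4 and 12.11, 12.00, 11.84 and 11.84 in knock-in replicates 1 to 4. The lowest knock-in array stood 0.19 log2 units above the highest wild type array, so the groups did not overlap. Means were 11.52 ± 0.13 and 11.95 ± 0.13 (SD, n = 4 each), a log2 change of 0.43 (SE 0.10, 95% interval 0.20 to 0.66). On the linear scale this was 1.35-fold (95% interval 1.15 to 1.58). The exact permutation p was 0.0286, the smallest that 4 against 4 arrays allow, and limma gave an unadjusted p of 0.00219 and an adjusted p of 0.178, which misses the threshold. By unadjusted p the gene ranked 165 among the 13449 tested. Groups did not overlap, by a gap of any size, in 7.16% of tested genes, 3.96% in the higher direction. A rise at least as large was seen in 3.13% (421 genes), so neither feature alone was rare in these arrays.

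The Fmo5 difference ran from 0.38 to 0.48 when single arrays were left out, with limma adjusted p of 0.205 to 0.353. A trended and robust prior brought the adjusted p to 0.0378, and under that prior 73 of all tested genes passed, against 9 as reported. By contrast, the adjusted p was 0.334 with the replicate block, 0.319 with no filter and 0.772 with the clock score as a covariate.

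**Figure D2:**
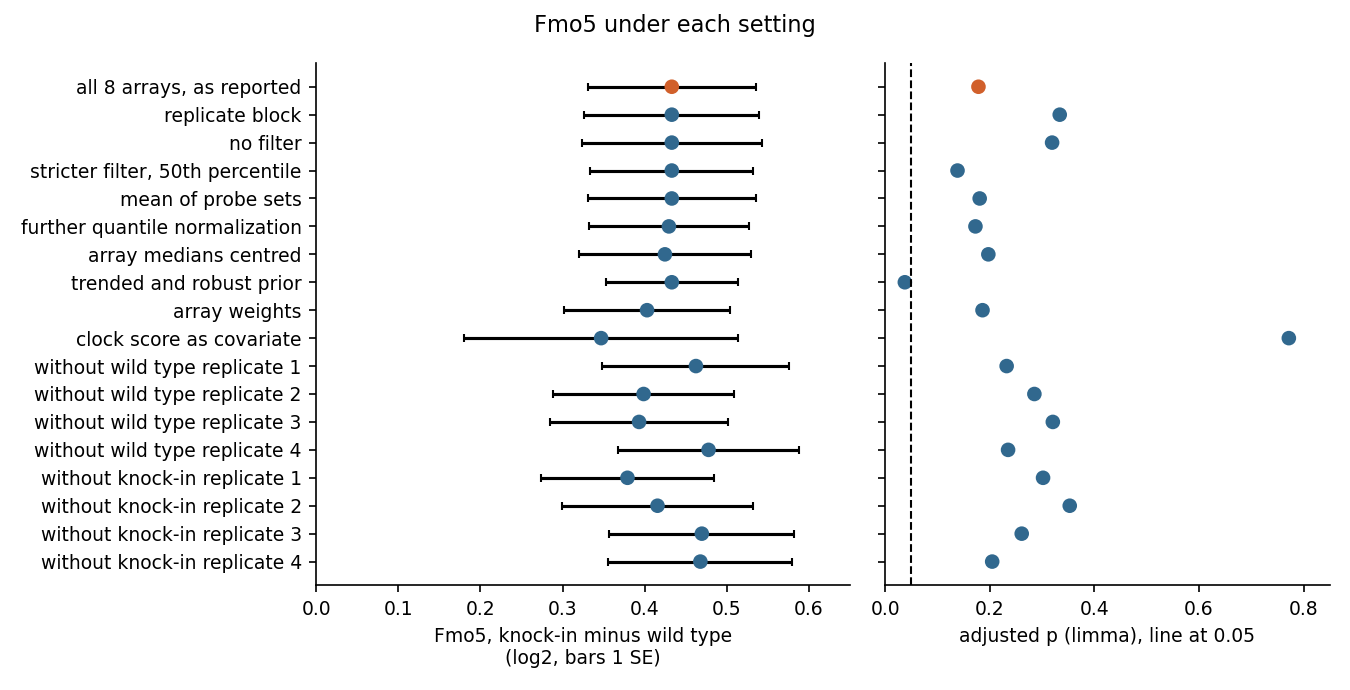
Fmo5 under the reported fit (orange) and 17 alternative settings (blue), with the change on the left (log2, knock-in minus wild type, bars 1 SE) and limma's adjusted p on the right (dashed line at the threshold of 0.05). All 18 changes lie between 0.35 and 0.48, and the trended and robust prior is the setting that falls left of the line.

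Whether Fmo5 moved by a different amount from its relatives was tested on the within-array difference of log2 values, for the 6 pairs of the 4 genes, with exact permutation p adjusted over the 6 pairs. A difference within an array shows unequal change and does not say which gene moved. Fmo5 minus Fmo4 lay between 3.74 and 4.11 on the wild type arrays and between 4.24 and 4.52 on the knock-in arrays, without overlap. It was larger in the knock-in by 0.57 (95% interval 0.31 to 0.83, exact p = 0.0286, adjusted p = 0.0857). Fmo5 minus Fmo1 lay between 0.17 and 0.61 in the wild type group and between 0.69 and 0.95 in the knock-in group, again without overlap. That contrast was larger by 0.51 (95% interval 0.23 to 0.79, exact p = 0.0286, adjusted p = 0.0857). Fmo5 minus Fmo2 was larger by 0.52 (95% interval 0.015 to 1.02), but its groups overlapped, since wild type replicate 4 was at 3.31 and the knock-in arrays at 3.24 to 3.51 (exact p = 0.0857, adjusted p = 0.171).

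The 3 pairs without Fmo5 differed little in change. Fmo2 minus Fmo1 was at -0.0080 (95% interval -0.39 to 0.38), Fmo4 minus Fmo1 at -0.06 (-0.48 to 0.36) and Fmo4 minus Fmo2 at -0.05 (-0.63 to 0.53), each with adjusted exact p = 1. None of the 6 pairs passed 0.05 after adjustment; unadjusted, 2 did, both at the smallest p that 4 against 4 arrays allow. With all 3 pairs that hold Fmo5 at that smallest p and the others above it, the adjusted p would be 0.0571, so those pairs could not have passed on their own and the adjusted test says little about them. The intervals of these pairs reach beyond 0.35 on either side, so an unequal change of that size among Fmo1, Fmo2 and Fmo4 is not excluded by these 8 arrays.

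**Figure D3:**
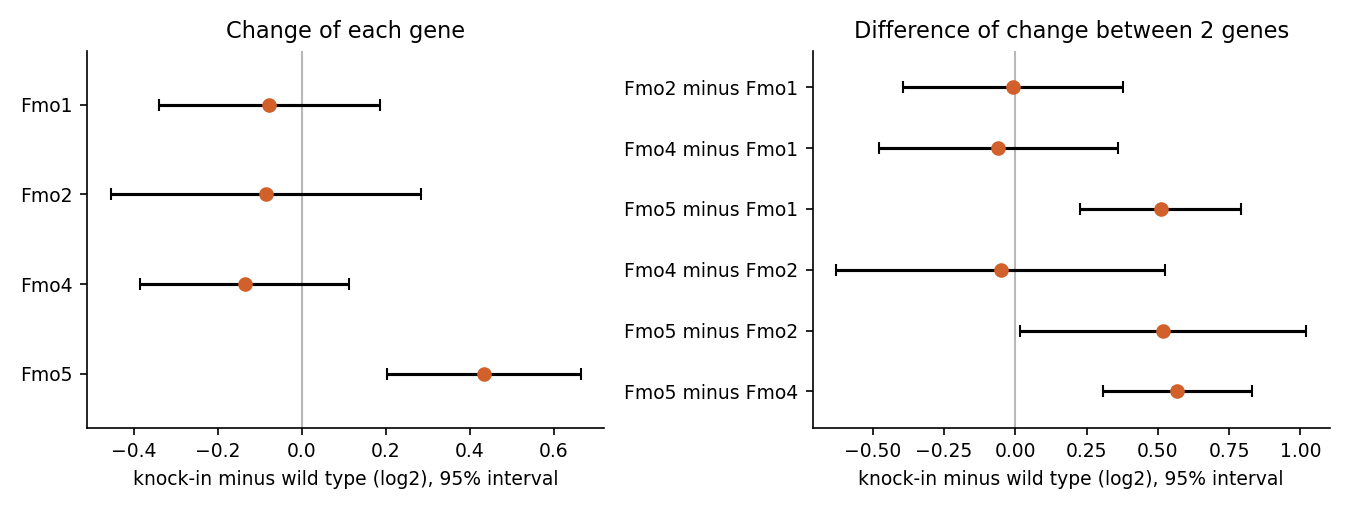
Left, log2 change (knock-in minus wild type) of each Fmo gene with limma's 95% interval; right, the difference of change between 2 Fmo genes for the 6 pairs, with 95% intervals from the pooled SD of the within-array differences. The intervals of Fmo5 and of the 3 pairs that hold it lie above 0, and the others span 0.

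**Figure D4:**
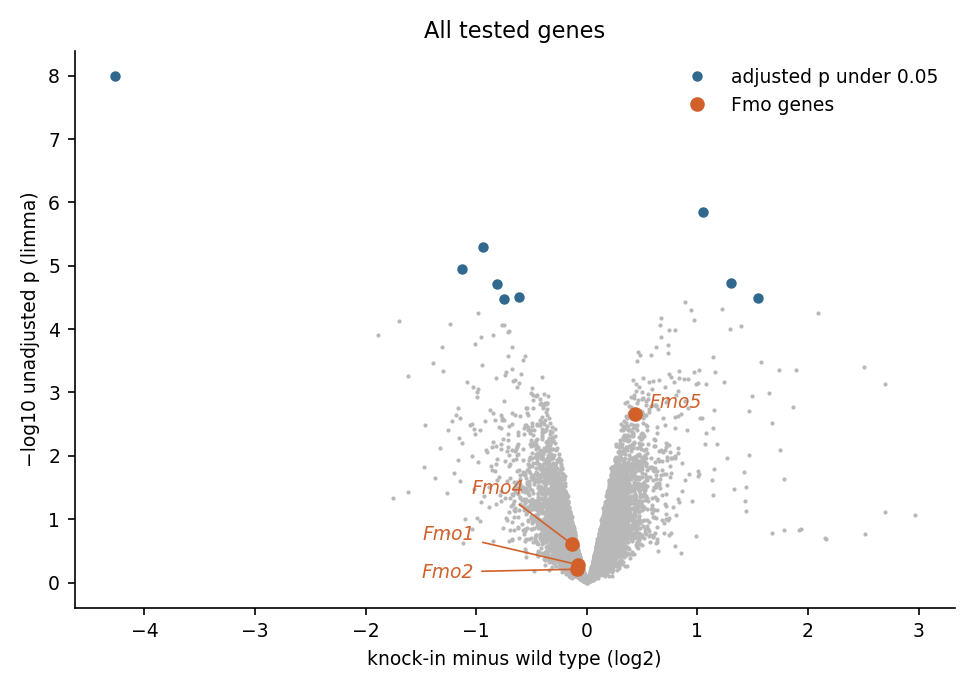
Log2 change (horizontal axis) against −log10 of limma's unadjusted p (vertical axis) for the 13449 tested genes, with the 9 genes of adjusted p under 0.05 in blue and the 4 Fmo genes in orange. Fmo5, at 0.43, lies inside the cloud of unadjusted differences below the blue points, and the other 3 lie near the origin.

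Genes around the enzymes were read from 8 lists, with 70 tested genes. By limma's adjusted p none of the 70 passed, against 0.0669% of all tested genes. An unadjusted p under 0.05 was reached by 5 of the 70, 3 higher and 2 lower. Over all tested genes that share was 11.3%, so the lists held no excess of such genes. The median change over all tested genes was 0.0046.

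For the cofactors, the 4 tested flavin supply genes (riboflavin kinase Rfk, FAD synthetase Flad1 and the carriers Slc52a3 and Slc25a32) were at -0.12 to 0.15 with a median of -0.0075. The 9 tested genes of NADPH supply and microsomal electron transfer, among them cytochrome b5 (Cyb5a) and its reductase Cyb5r3, were at -0.20 to 0.24 with a median of 0.02. In both lists no tested gene had an unadjusted limma p under 0.05. Slc52a2 of the first list, and Por and G6pdx of the second, had no probe set of their own. The values therefore cover only part of each list.

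Taurine synthesis, where Fmo1 takes the last step, held the gene with the smallest p of the 8 lists. Csad, the decarboxylase that supplies hypotaurine, read 9.43, 9.72, 9.91 and 10.04 in wild type replicates 1 to 4 and 8.74, 8.08, 8.12 and 8.92 in knock-in replicates 1 to 4. All knock-in arrays lay below all wild type arrays, and the means were 9.77 ± 0.27 and 8.46 ± 0.43 (SD, n = 4 each). The change was -1.31 (SE 0.22, limma adjusted p = 0.0729), which misses the threshold; it was -1.02 with the clock score as a covariate (adjusted p = 0.696) and passed with the trended and robust prior (0.0365). Of the 8 genes tested in the list, 2 were higher and 6 lower with a median of -0.02, and the remaining 7, such as cysteine dioxygenase Cdo1 at 0.07, had an unadjusted p over 0.05.

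Among 12 tested non-P450 enzymes that oxidise or reduce drugs and amines, 7 were higher and 5 lower, with a median of 0.04. Xanthine dehydrogenase (Xdh) was at 0.26 (SE 0.08, limma adjusted p = 0.259), and it was the list's gene with an unadjusted p under 0.05; with the clock score as a covariate it was at 0.18 (adjusted p = 0.861). Of 12 tested regulators of drug metabolism genes, 7 were higher and 5 lower, with a median of 0.03. The receptor PXR (Nr1i2), a xenobiotic sensor, was at 0.33 (SE 0.13, adjusted p = 0.358), and its values were 9.16 to 9.70 in the wild type group against 9.69 to 9.92 in the knock-in group. Its groups overlapped by wild type replicate 3, and with the clock score as a covariate it was at 0.12 (adjusted p = 0.958).

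Sex-biased liver genes were listed because many drug-metabolising enzymes differ between male and female mouse liver. The 10 tested male-biased genes had a median of -0.22 and none had an unadjusted p under 0.05. The 8 tested female-biased genes, 4 higher and 4 lower, had a median of -0.0022. From the same list Cyp2b13, Sult2a1, Sult3a1 and Hao2 were dim, and Cyp3a41a had no probe set of its own. Among the tested genes the steroid hydroxylase Cyp2a4 was at 2.70 (SE 0.54, limma adjusted p = 0.119) and the plasma glycoprotein gene A1bg at -1.02 (SE 0.41, adjusted p = 0.381). Cyp2a4 has close relatives that its probe set may also read, and its values were 4.83 to 7.23 in the wild type group against 7.52 to 9.11 in the knock-in group. Cyp2b9 had the list's highest change, 2.96 (SE 1.53, limma adjusted p = 0.511), but its groups overlapped. Wild type replicate 1 read 8.17 and knock-in replicate 4 read 3.29 for Cyp2b9. For Cyp2a4 the same arrays were the highest of the wild type group (7.23) and the lowest of the knock-in group (7.52). With the clock score as a covariate Cyp2a4 was at 1.77 (limma adjusted p = 0.753). A1bg was near the dim limit, above it on 4 of 8 arrays. Protein-coding neighbours in the genome gave 7 tested genes, at -0.13 to 0.28 with a median of 0.02 and none with an unadjusted p under 0.05. Next to Fmo5, Chd1l was at 0.28 (SE 0.17) and Prkab2 at 0.02 (SE 0.20).

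**Figure D5:**
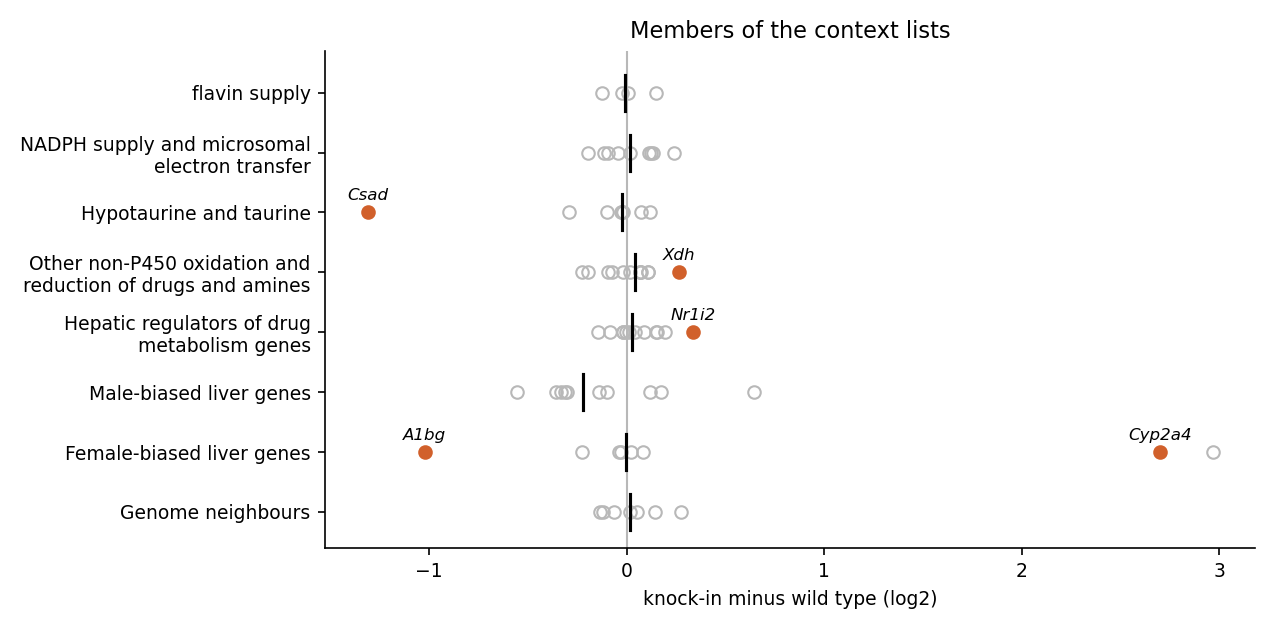
Log2 change (knock-in minus wild type) of the tested members of the 8 lists, 1 circle per gene, filled and named where the unadjusted p is under 0.05, with a black bar at each list's median. Most genes lie within 0.35 of 0, and Csad, at -1.31, is far from the rest of its list.

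For each Fmo gene, the 3 tested genes with the highest Pearson r over the 8 arrays were picked from 13448, so high r values arise by the choice alone and carry no p. For Fmo5 these were Fkbp5, a co-chaperone of steroid receptors (r = 0.985, Spearman rho 0.976), the sorting nexin Snx21 (r = 0.982, rho 0.976) and the exchange factor Arhgef26 (r = 0.968, rho 0.929). After group means were removed r was 0.935, 0.922 and 0.852, and without the 2 arrays farthest from the Fmo5 median it was 0.969, 0.984 and 0.960. Their own changes were 0.99 (SE 0.20), 0.45 (SE 0.09) and 0.79 (SE 0.16), with limma adjusted p of 0.119, 0.138 and 0.119. With the clock score as a covariate they were 0.63, 0.39 and 0.49 (adjusted p = 0.754, 0.719 and 0.753). Because the genes were chosen for their likeness to Fmo5, the direction of these changes follows from the choice.

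The other 3 genes had different partners by the same rule. Fmo2 ran with Zfp277 (r = 0.988, and 0.994 with group means removed), 2610507I01Rik (r = 0.956) and Pdcd2l (r = 0.950). Fmo4 ran with Relb (r = 0.984, and 0.982 with group means removed), Erlin1 (r = 0.961) and Cpsf3 (r = 0.956). Fmo1 ran with Smok4a (r = 0.945), Sumo3 (r = 0.944) and Purg (r = 0.940). Without the 2 arrays farthest from the median of the Fmo gene, r was 0.958 for Fmo2 with Zfp277, 0.976 for Fmo4 with Relb, 0.671 for Fmo4 with Erlin1, and 0.805, 0.786 and 0.868 for Fmo1 with its 3 partners. At r over 0.9 there were 90 genes for Fmo5, 19 for Fmo4, 18 for Fmo2 and 12 for Fmo1. These counts used all 8 arrays with the group means left in. Any gene that differed between the groups tends to a high r, of either sign, with Fmo5, whose groups did not overlap. The counts were not made with group means removed, so they do not show that Fmo5 ran with more genes within a group.

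Hepatocyte markers, such as albumin, had mean log2 values of 12.1 to 12.2 in both groups; 5 of 6 were higher and 1, Serpina1a, which has near-identical copies, was lower at an unadjusted p under 0.05 (-0.35). Markers of stellate cells and fibroblasts averaged 6.78 to 7.58 in the wild type group and 7.004 to 7.61 in the knock-in group, and those of sinusoidal endothelium 9.13 to 9.24 and 9.21 to 9.34. Of the 6 endothelial markers, 4 were higher and 2 lower with a median change of 0.04, and Lyve1, at 0.73, had an unadjusted limma p of 0.0115. Kupffer cell markers averaged 8.39 to 9.04 and 8.28 to 8.92, lymphocyte markers 5.21 to 5.80 and 5.40 to 5.82, cholangiocyte markers 4.54 to 4.90 and 4.56 to 5.05, and smooth muscle markers 4.99 to 6.00 and 5.10 to 6.45. All 4 smooth muscle markers were higher, with a median change of 0.32. Of the 8 stellate cell and fibroblast markers, 5 were higher and 3 lower, with a median of 0.10. In these 2 lists no marker had an unadjusted limma p under 0.05. Of 4 adipocyte markers with a probe set, Adipoq, Plin1 and Lep were dim. None of the tested markers passed limma's adjusted threshold, and the ranges of all 8 marker lists overlapped between groups. A clock score per array was the mean log2 value of clock repressor and output genes less that of clock activators. The first set was drawn from Ciart, Per1, Per2, Per3, Dbp, Tef, Hlf, Nr1d1, Nr1d2 and Bhlhe41, the second from Arntl, Npas2 and Clock. Over the wild type group the score ranged from -1.80 to -0.04 and over the knock-in group from -0.41 to 1.38. The score ran largely with genotype: knock-in replicate 4 (-0.41) was the only knock-in array below the highest wild type array (-0.04). The 2 can therefore hardly be told apart here, and a larger p with the score in the fit partly reflects a wider SE. With the score as a covariate Fmo5 was at 0.35 (SE 0.17 against 0.10 without it, limma unadjusted p = 0.0711, adjusted p = 0.772). The part of the score in the Fmo5 difference was not tested further.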

How the data were processed

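The values deposited are on a log2 scale, 1 per probe set and array, for 8 arrays (4 wild type, 4 knock-in); the submitters' processing notes name RMA and limma without versions, and the labels give 400 ng of RNA per array. No source used here gives the build or annotation version. RMA evens out array distributions and compresses changes near both ends of the scale. Arrays have no read depth, and their number limits the precision.

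Probe sets were named from GEO's platform annotation where it listed exactly 1 symbol (23521 of 41345; 1814 had several and 16010 were unnamed); 23328 symbols matched RefSeq (GRCm38.p6) by Entrez identifier and 0 changed. The probe set with the highest mean was kept per gene (22180 genes). Genes above the dim limit on at least 4 of 8 arrays were tested (13449). Genotype was the only term of a limma fit (version 3.58.1, R 4.3.3), two-sided, with Benjamini-Hochberg adjustment over all tested genes and threshold 0.05. Exact permutation tests used all 70 splits. The fit was also run on simulated data with known changes, as a check of the code. Its rate of recovery at the size of the Fmo5 change is not given here. The naming rule took the 4 Fmo genes, up to 4 genes per list with unadjusted p under 0.05, and the 3 genes most like each Fmo gene. Neighbours Chd1l and Prkab2 and the list examples were named outside it, after their values were seen, as were Cyp2b9 and the markers Serpina1a and Lyve1. Members, lists, tests and the clock score were chosen with earlier results of these data known. Alternatives were the replicate block, filters, normalizations, priors, weights, the clock score and leaving out each array.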

Additional observations from a re-analysis of the deposited data

Results flagged for a closer look

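Among 24 groups of 4 arrays examined (12 genes whose change is given), 3 held an array far from the other 3; chance alone flags about 1 in 20 groups. Fmo1 in knock-in replicate 4 was at 10.91, below the other knock-in arrays at 11.15 to 11.18. Xdh in wild type replicate 1 was at 8.70, below the other wild type arrays at 8.78 to 8.79. A1bg in knock-in replicate 2 was at 4.04, above the other knock-in arrays at 2.90 to 3.09, which lay below the dim limit.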

How the results depend on the processing

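Fmo5 kept its direction in all 17 alternatives and passed the threshold in 1, the trended and robust prior (0.43, adjusted p = 0.0378). Without single arrays it ranged from 0.38 to 0.48, Fmo4 from -0.19 to -0.05, Fmo1 from -0.12 to 0.010 and Fmo2 from -0.20 to 0.040. With the clock score as a covariate Fmo2 turned to 0.25, Fmo4 moved to -0.36 (unadjusted p = 0.0465) and Fmo5 to 0.35 (unadjusted p = 0.0711); the cause was not tested. The count of Fmo genes past the threshold was 1 with the trended and robust prior and 0 otherwise, and the count over the lists was 1 (Csad) with that prior and 0 otherwise. The count over all genes, 9 as reported, was 2 with the replicate block, 2 with no filter, 28 with the stricter filter, 24 with probe sets averaged, 73 under the trended and robust prior, 25 with array weights and 1 with the clock score. Without single arrays it ranged from 1 to 13: 3, 1, 7 and 2 without wild type replicates 1 to 4 and 1, 4, 1 and 13 without knock-in replicates 1 to 4.

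Same-numbered arrays showed no shared deviation (residual r of -0.11 to 0.10 over the 4 pairs, against -0.09 to 0.11 for other pairs of arrays). This cannot show whether the numbers pair the samples by design, which the labels do not state. With the replicate block Fmo5 was at 0.43 (limma adjusted p = 0.334) and Fmo1, Fmo2 and Fmo4 stayed short of the threshold. The difference of change without single arrays ran from 0.53 to 0.65 for Fmo5 minus Fmo4, 0.45 to 0.60 for Fmo5 minus Fmo1 and 0.36 to 0.68 for Fmo5 minus Fmo2. The 3 other pairs changed sign, at -0.080 to 0.11 for Fmo2 minus Fmo1, -0.20 to 0.070 for Fmo4 minus Fmo1 and -0.18 to 0.15 for Fmo4 minus Fmo2. With group means removed, 0 of the 3 genes most like Fmo1, 1 for Fmo2, 1 for Fmo4 and 0 for Fmo5 remained among the first 3.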
